A study of Mus musculus with 7 samples.

Results

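Pancreatic β cells keep a set of widely expressed genes silent, the disallowed genes, and 10 of these act in signalling and growth: Yap1, Nfib, Igfbp4, Fgf1, Pdgfra, Cxcl12, Smad3, Lmo4, Tgm2 and Wls. Open chromatin at these genes was measured by ATAC-seq, in which the Tn5 transposase inserts adapters wherever DNA is accessible. Every region of the deposited table that carried 1 of the 10 symbols was taken, which gave 20 of 61288 listed regions and 10 of 24453 listed symbols. The table lists a region only where the authors called it different between these same groups, so the listing of these 20 regions is not itself a finding. Regions that were tested but not listed were not analysed here.

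Mice of the Chd3/4Δβ group were Chd3 fl/fl; Chd4 fl/fl; R26LSL-tdTomato; MIP-CreERT males, and lack the chromatin remodellers CHD3 and CHD4 in β cells. Control males were Chd3+/+; Chd4+/+; R26LSL-tdTomato; MIP-CreERT. Animals of both groups carried the tamoxifen-activated Cre driven by the mouse insulin promoter and the Tomato reporter, and both received tamoxifen by oral gavage as young mice, so effects that Cre and tamoxifen have on both groups are shared. Tomato-positive cells were sorted by flow cytometry weeks later. The design holds 4 Control and 3 Chd3/4Δβ libraries, whose labels give no age and do not say that replicates came from separate animals. The p-values thus rest on the spread among libraries, part of which may be technical.

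CHD3 and CHD4 are the motor subunits of the nucleosome remodelling and deacetylase complex, which moves nucleosomes and removes acetyl groups from histones. Growth factor signals reach the nucleus through a few routes represented here. Ligands such as FGF1 and CXCL12 bind surface receptors, PDGFRα among them being a tyrosine kinase, and IGFBP4 binds insulin-like growth factors outside the cell. SMAD3 carries TGF-β signals to DNA, YAP1 is the coactivator restrained by the Hippo kinases, WLS escorts WNT proteins to the cell surface, and TGM2 cross-links proteins.

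Library sizes behind the deposited CPM, which are counts scaled by library size, ranged from 17.6 to 44.0 M, and the listed regions held 48.1% to 49.6% of them. In the table's headers, Control replicates 1 to 3 share a lane tag, Chd3/4Δβ replicate 3 bears a different one and the other 3 libraries bear none, and no source says whether these tags mark runs. Values against Control replicate 4 alone, which assume that it varies like the other group, are given where they end a call or move a value by over 1.5 times. The β-cell label was checked against 12 β-cell genes, all of which had a listed region. Their summed level at the region nearest each transcription start site (TSS) was 553 to 612 CPM in Control and 291 to 443 CPM in Chd3/4Δβ, with 4 genes lower and none higher (2 to 8 lower across scalings). Loss of the Cre-excised parts of Chd3 and Chd4 was not checked here. In sorted bulk nuclei, a change in the share of a cell type and a change in accessibility per cell cannot be told apart.

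Calls of a gain or a loss needed an edgeR adjusted p under 0.05 and a log2 fold change of at least 1 in size. As regions were listed for a difference between these same groups, passing the p threshold was nearly fixed in advance. All 20 regions passed it, so the fold threshold decided the calls. The p-values given here are thus no independent support for a change. Of the 20 regions, 8 were higher, beside 37% of all listed regions. Another 5 were lower, beside 20.4%, and 7 were neither. Called gains ran from 1.05 to 4.14 on the log2 scale and called losses from -3.09 to -1.15. The median log2 fold change over the 20 regions was 0.46, beside 0.56 over all listed regions. Every listed region reached 1 CPM in at least 3 libraries. Where all Control libraries were under 1 CPM, the 3 Chd3/4Δβ libraries thus had to lie above them. All Chd3/4Δβ libraries lay above all Control libraries in 10 regions (49.3% of all listed) and below them in 9 (38.8% of all listed), and the groups overlapped in 1. As a set, these shares lay near those of the whole table. Without the fold threshold, 11 regions were higher (52.6% of all listed) and 9 lower (44.9%). Calls against Control replicate 4 alone are given at the end, beside those of the whole table.

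Yap1, Nfib, Pdgfra and Tgm2 had called gains and no called loss. Smad3 and Wls had called losses and no called gain. Igfbp4 and Fgf1 each had 1 called gain and 1 called loss, and Cxcl12 and Lmo4 had no call. By the deposited annotation, 9 regions were intronic, 7 intergenic, 2 at promoters, 1 in an exon and 1 at a transcription termination site, so that only 2 of the 20 stood at an annotated start.

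**Figure D1:**
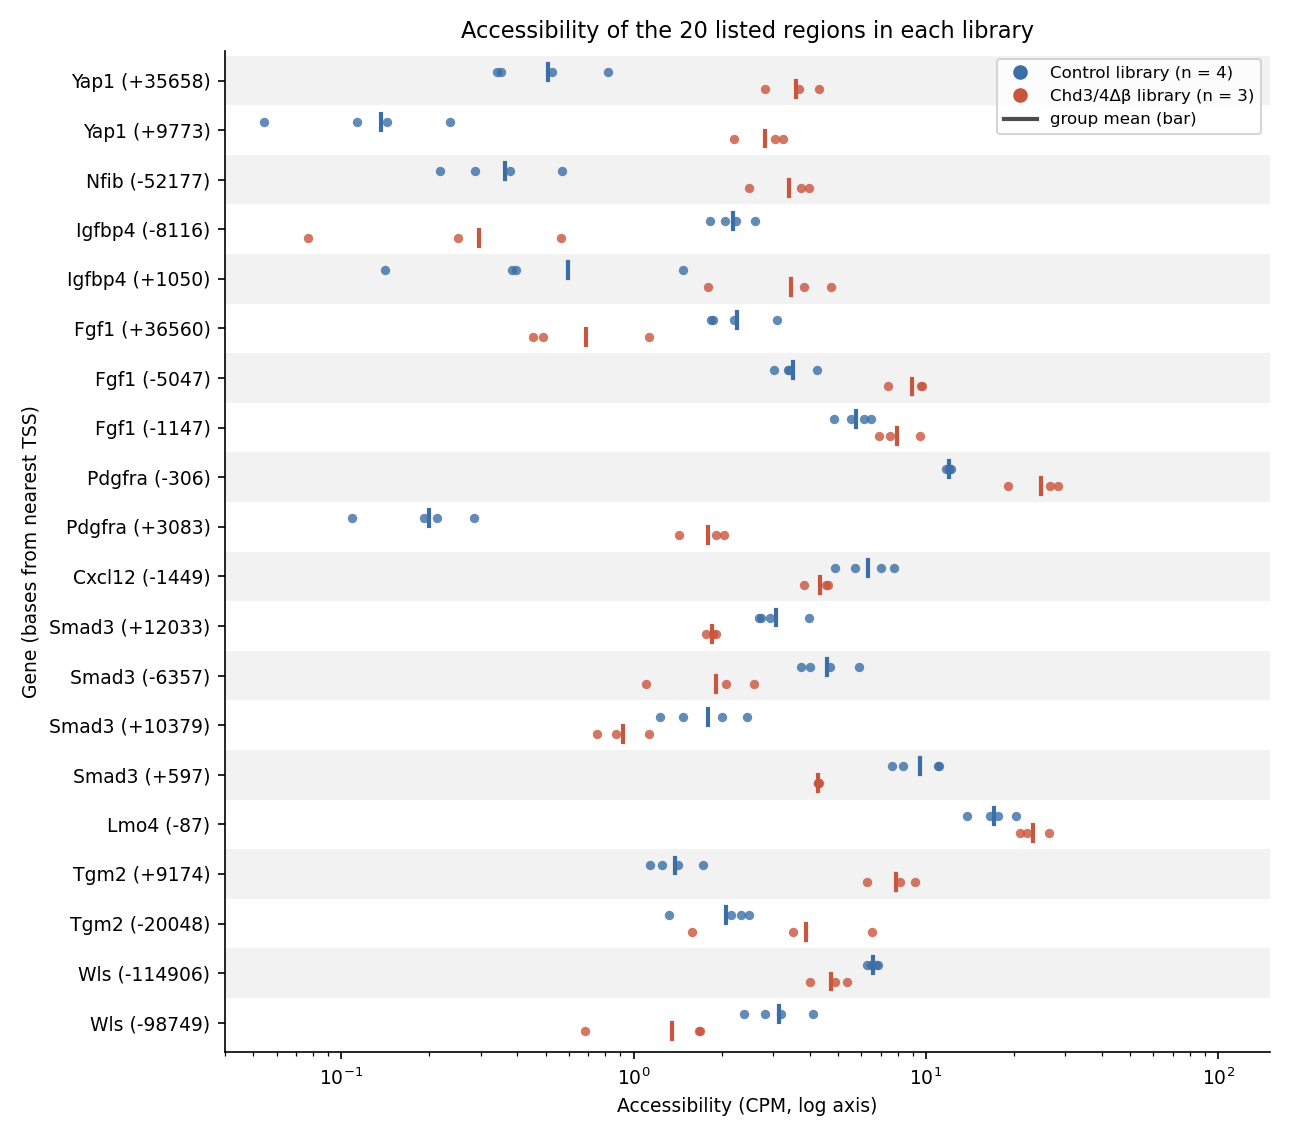
Accessibility in CPM on a log axis for the 20 listed regions, named by gene and by distance in bases from the nearest TSS. Points are libraries, 4 Control (blue) and 3 Chd3/4Δβ (red), and bars are group means. The groups overlap in 1 region, the Tgm2 region at -20048, and 10 regions are higher and 9 lower in every Chd3/4Δβ library.

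The sequences at the promoters of Pdgfra and Lmo4 are shown because these were the members with a promoter-class region, and because the regions lie differently on them. Each is a RefSeq window (GRCm38.p6) from 250 bases before to 50 after a gene start, printed 5′ to 3′ on the gene's strand with every CpG in capitals. The Pdgfra window is at chr5:75152001-75152300 on the plus strand. The Lmo4 window is at chr3:144205206-144205505 on the minus strand.
Pdgfra: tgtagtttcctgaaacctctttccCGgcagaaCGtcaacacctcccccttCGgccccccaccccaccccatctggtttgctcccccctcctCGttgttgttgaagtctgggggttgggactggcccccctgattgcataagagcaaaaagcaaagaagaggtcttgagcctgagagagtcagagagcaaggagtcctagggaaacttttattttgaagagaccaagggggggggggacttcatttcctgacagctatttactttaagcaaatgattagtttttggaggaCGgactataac
Lmo4: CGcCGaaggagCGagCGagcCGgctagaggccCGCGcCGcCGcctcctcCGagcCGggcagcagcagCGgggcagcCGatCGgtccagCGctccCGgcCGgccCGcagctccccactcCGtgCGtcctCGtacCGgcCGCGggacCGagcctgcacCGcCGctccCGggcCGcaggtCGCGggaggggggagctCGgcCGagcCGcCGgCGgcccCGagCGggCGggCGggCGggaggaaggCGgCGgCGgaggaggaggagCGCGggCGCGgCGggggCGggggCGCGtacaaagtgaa

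The Lmo4 window is 81.3% G and C with 52 CpG sites. The Pdgfra window is 51% G and C with 5 CpG sites, beside medians of 52.7% and 7 CpG sites over 32851 RefSeq windows. The Lmo4 window lies wholly within the listed Lmo4 region. The Pdgfra window lies outside any listed region, and the promoter-class region of Pdgfra starts 3416 bases from it, at the start of a shorter transcript inside the gene. RefSeq gave windows for 7 of the 10 genes, 9 windows in all, and the other 7 windows also shared no base with a listed region. Thus for 6 of these 7 genes, the listed change in accessibility lay away from the RefSeq window.

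Letters of known motifs were searched on both strands of the 9 windows, as a description only. The GC box GGGCGG, bound by SP family factors, occurred in 7 of 9 windows (35.7% of all RefSeq windows) and 4 times in the Lmo4 window shown. These windows were of Cxcl12, Smad3, Wls, Yap1 and Lmo4, and all Lmo4 windows, some of which overlap, were among them. Member windows were 51% to 81.3% G and C, beside a median of 52.7%, and the comparison takes no account of this. The TEAD motif GGAATG, through which YAP1 acts on DNA, occurred in 1 of 9, the Yap1 window itself (14.7% of all windows). The Yap1 window also held the E-box CACGTG (7.15% of all windows), and the Igfbp4 window held TATAAA (13.6%). CCAAT (37.4% of all windows), the AP-1 motif TGANTCA (7.81%), the SMAD palindrome GTCTAGAC (0.213%) and the palindromic NFI motif (0.0365%) were in none of the 9.

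Yap1 had the largest gain among the 20 regions that bear a member's symbol. Its intronic region at chr9:7991589-7992272, in the first intron of a Yap1 transcript, stood at 0.113, 0.0543, 0.143 and 0.236 CPM in Control replicates 1 to 4 and at 2.2, 3.23 and 3.04 CPM in Chd3/4Δβ replicates 1 to 3. It was nearly closed in every Control library, with 1 to 10 reads, and open in every Chd3/4Δβ library, with 54 to 126 reads. With all Control libraries under 1 CPM, the listing of the region fixed this separation in advance, though not its size. The mean rose from 0.137 ± 0.0757 (SD, n = 4) to 2.82 ± 0.547 CPM (SD, n = 3), a log2 fold change of 4.14 (SE 0.394, adjusted p = 1.15e-08, edgeR). Control was in the lowest 0.7% of listed regions by mean CPM, whereas Chd3/4Δβ was at percentile 44.5, so the locus went from closed to an ordinary level for this table. Under cyclic loess scaling the gain was 1.70 (adjusted p = 0.00575) and still called.

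A further Yap1 region, named after its values were seen, lay 1475 bases past the end of the gene at chr9:7929802-7930524. It rose by 2.88 on the log2 scale (SE 0.326, adjusted p = 1.49e-07), from 0.508 ± 0.221 to 3.6 ± 0.752 CPM. Both regions summed to 0.645 ± 0.173 CPM in Control and 6.43 ± 0.968 CPM in Chd3/4Δβ, and the lowest Chd3/4Δβ sum of 5.85 CPM lay well above the highest Control sum of 0.868 CPM. At each region every Control library was under 1 CPM, so the listing fixed a gap between the groups, though not its size.

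In each list of related genes, the listed region nearest a TSS stood for the gene. Over all genes 34.4% were higher and 18.1% lower by this reading. Of 13 listed Hippo and TEAD genes of 20, 3 were higher and 3 lower (median log2 fold change -0.24, beside 0.44 over all genes). Those higher were Tead4, a DNA-binding partner of YAP1 (1.59, SE 0.293), Ankrd1, a YAP1 target (1.51, SE 0.277), and Stk4, a Hippo kinase (1.18, SE 0.291). Those lower were Mob1b, a kinase cofactor (-1.45, SE 0.304), Vgll4, which competes with YAP1 for TEAD (-1.40, SE 0.209), and Amotl1, which holds YAP1 outside the nucleus (-1.12, SE 0.378). With the most accessible listed region standing for each gene instead, 3 were higher and 1 lower. The targets Ccn1 and Ccn2 and the YAP1 paralogue Wwtr1 had no listed region.

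Nfib encodes a nuclear factor I protein, a DNA-binding regulator of progenitor cells in several organs. The only region carrying its symbol was intergenic at chr4:82757664-82758190, 250913 bases outside the RefSeq gene. It stood at 0.567, 0.217, 0.287 and 0.377 CPM in Control and at 3.73, 3.98 and 2.48 CPM in Chd3/4Δβ. As every Control library was under 1 CPM, the listing fixed that every Chd3/4Δβ library was above every Control library. The mean went from 0.362 ± 0.152 to 3.39 ± 0.804 CPM. This was a log2 fold change of 3.23 (SE 0.337, adjusted p = 4.71e-08), and of 2.02 with cyclic loess.

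The Nfib gene body itself held 6 listed regions to which the table gives no symbol, and these were found after values had been seen. Of these, 4 were higher, beside 37% of all listed regions, and none lower, beside 20.4%. The largest change, at chr4:82300961-82301570 in an intron, went from 0.443 CPM in Control to 13 CPM in Chd3/4Δβ, with a log2 fold change of 4.88 (SE 0.267, adjusted p = 4.01e-12), larger than any region that bears a member's symbol. The other 3 gains were 1.98, 1.21 and 1.12, and the remaining pair stood at 0.77 and 0.59. Counting by symbol alone thus missed the Nfib introns.

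Lmo4, a LIM-only protein that bridges transcription factors, had 1 region, at its promoter (chr3:144204622-144205992). It was the most open region of the 20 in Control, at 13.8, 17.6, 16.5 and 20.3 CPM, and stood at 26.3, 21 and 22.2 CPM in Chd3/4Δβ. The groups did not overlap, but the Chd3/4Δβ replicate with the least signal was only slightly above Control replicate 4. The log2 fold change of 0.44 (SE 0.148, adjusted p = 0.0158) was under the fold threshold and was 0.12 (adjusted p = 0.773) with RLE scaling and 0.19 (adjusted p = 0.777) against Control replicate 4 alone. Among all 6643 promoter regions, 22.1% were called higher and 8.94% lower.

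Of 7 listed NFI factors and LIM partners, 3 were higher and 1 lower. The promoter of Lmo1, a LIM-only paralogue of Lmo4, rose from 4.33 ± 1.03 to 10.5 ± 2.28 CPM (1.26, SE 0.206). The cofactors Ldb1 (1.29, SE 0.294) and Ldb2 (1.25, SE 0.238) also rose, and Nfia, the NFI paralogue, fell (-1.45, SE 0.310). With RLE scaling none of the list was higher and with housekeeping promoter scaling 5 were, and by the most accessible region 2 were higher and none lower.

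Smad3 was the member with the most regions, 4, all within the gene and all lower in every Chd3/4Δβ library. The called loss of largest size was intronic, at chr9:63672514-63673295. It stood at 4.71, 5.92, 4.02 and 3.75 CPM in Control and at 2.07, 1.1 and 2.59 CPM in Chd3/4Δβ. The lowest Control library was thus above the highest Chd3/4Δβ library. Means were 4.6 ± 0.968 and 1.92 ± 0.753 CPM, with a log2 fold change of -1.29 (SE 0.277, adjusted p = 0.00045). Leaving out Chd3/4Δβ replicate 2 gave -0.99, which is not called, as did the comparison with Control replicate 4 alone.

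The other 3 Smad3 regions are named after their values were seen. The region nearest the gene start, at chr9:63749975-63750985 in the first intron, was at 9.54 ± 1.8 CPM in Control and 4.28 ± 0.0168 CPM in Chd3/4Δβ, a fall with a log2 fold change of -1.15 (SE 0.193, adjusted p = 3.04e-05). It was at -0.93 with scaling on housekeeping promoters and at -0.84 against Control replicate 4 alone, either of which ends the call. The remaining pair stood at -0.98 (SE 0.329) and -0.73 (SE 0.252) and was not called, and the first of these was at -0.45 against Control replicate 4 alone. Over the 4 regions the summed level was 17.2, 22, 21.5 and 15.3 CPM in Control and 8.88, 8.11 and 9.9 CPM in Chd3/4Δβ, a ratio of 0.472 between the means with no overlap.

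Of 16 listed TGF-β and SMAD genes of 19, 3 were higher and 2 lower (median -0.31). The higher regions were those of ligands and a coreceptor: Inhbb, an activin subunit (2.64, SE 0.337), Tgfb2 (1.56, SE 0.335) and Tgfbr3 (1.10, SE 0.235). The lower regions were those of the receptor Tgfbr1 (-1.23, SE 0.257) and the inhibitor Smad6 (-1.06, SE 0.344). By the most accessible region 3 were higher and none lower, and with RLE scaling 4 were lower. Promoter regions of the SMAD genes Smad2 (-0.37, SE 0.0972) and Smad7 (-0.52, SE 0.144) were below the fold threshold.

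Fgf1, a ligand of all FGF receptors, had regions that moved in opposite directions. The called gain was at chr18:38923035-38924602, within the gene, at 4.25, 3.36, 3.39 and 3.02 CPM in Control and 9.65, 7.44 and 9.73 CPM in Chd3/4Δβ. All Chd3/4Δβ libraries were above all Control libraries, and the means were 3.51 ± 0.527 and 8.94 ± 1.3 CPM. The region rose by 1.36 on the log2 scale (SE 0.196, adjusted p = 4.64e-06).

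The called loss of Fgf1 was at chr18:38821952-38822425, 16247 bases outside the RefSeq gene and in an intron of a transcript that the table does not list as Fgf1. It stood at 1.87, 3.09, 2.2 and 1.84 CPM in Control and at 0.454, 0.488 and 1.13 CPM in Chd3/4Δβ. The groups were again apart, and the log2 fold change was -1.81 (SE 0.361, adjusted p = 0.000203), or -1.52 (adjusted p = 0.0569, not called) against Control replicate 4 alone. A region 734 bases outside the gene start, named after its values were seen, was at 5.74 ± 0.717 and 7.99 ± 1.36 CPM (0.49, SE 0.188) and was not called, with a value of 0.18 under RLE scaling.

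Igfbp4 showed the sharpest contrast within 1 gene. The region upstream of it at chr11:99032822-99033435 stood at 1.82, 2.6, 2.06 and 2.24 CPM in Control and at 0.25, 0.077 and 0.563 CPM in Chd3/4Δβ. These low levels rest on 3 to 11 reads per Chd3/4Δβ library, against 32 to 95 reads in Control. From 2.18 ± 0.333 CPM the mean fell to 0.296 ± 0.246 CPM. The log2 fold change of -3.09 (SE 0.432, adjusted p = 2.66e-06) was in the lowest 0.2% of the table.

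The intronic region of Igfbp4 at chr11:99045561-99046071 moved the other way, from 0.397, 1.47, 0.383 and 0.141 CPM in Control to 3.82, 4.75 and 1.8 CPM in Chd3/4Δβ. Control replicate 2 stood above the other Control libraries and just below Chd3/4Δβ replicate 3. The log2 fold change was 2.71 (SE 0.542, adjusted p = 0.000748), and 4.60 against Control replicate 4, the lowest Control library, alone. Because of these opposite changes the summed Igfbp4 level overlapped between the groups, at 2.21 to 4.07 CPM in Control and 2.36 to 4.82 CPM in Chd3/4Δβ.

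**Figure D2:**
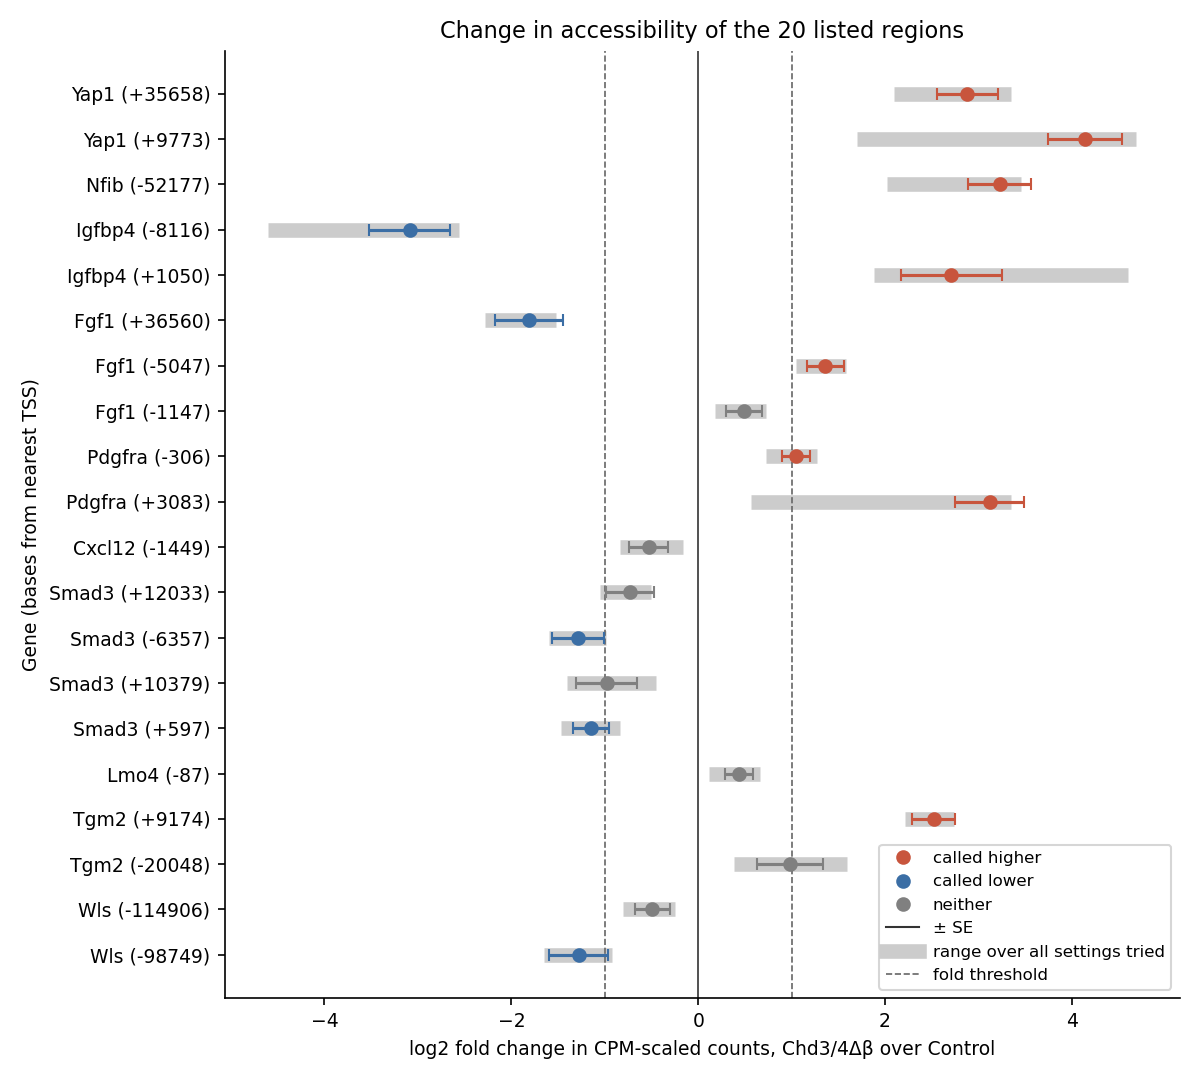
Log2 fold change, Chd3/4Δβ over Control, with its standard error, for the 20 listed regions, coloured by call. Grey bands span the values over every alternative setting, and dashed lines mark the fold threshold. The intronic Yap1 region reaches 4.14 and the upstream Igfbp4 region -3.09, and no band crosses 0.

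Of 11 listed insulin-like growth factor (IGF) genes of 12, 3 were higher and 3 lower. By the most accessible region 2 were higher and 1 lower, and with housekeeping promoter scaling 5 and 2. The promoter of Igfbp3, a paralogue of Igfbp4, was at 0.766 ± 0.152 CPM in Control and 20.5 ± 3.3 CPM in Chd3/4Δβ, a rise of 4.68 on the log2 scale (SE 0.212, adjusted p = 3.49e-13). Regions of the ligand Igf2 (3.19, SE 0.406) and of Igfbp7 (3.10, SE 0.222) rose too. Those of Igf1 (-1.42, SE 0.360), Igfbp5 (-1.32, SE 0.198) and the insulin receptor gene Insr (-1.06, SE 0.264) fell.

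Cxcl12, a chemokine that attracts cells bearing CXCR4, had 1 region, 1143 bases upstream of the gene at chr6:117166781-117167392. It stood at 7.77, 5.7, 7.03 and 4.88 CPM in Control and at 4.54, 4.64 and 3.83 CPM in Chd3/4Δβ. The groups did not overlap, though Control replicate 4 was close to Chd3/4Δβ replicate 2. The log2 fold change of -0.53 (SE 0.207, adjusted p = 0.035) was under the fold threshold. It was -0.31 (adjusted p = 0.309) with housekeeping promoter scaling and -0.16 (adjusted p = 1) against Control replicate 4 alone, and -0.84 (adjusted p = 0.00133) with RLE. The region of the receptor gene Cxcr4 was at 0.89 (SE 0.199) and was not called either. Of the 3 listed genes of 4 around this chemokine, 1 was higher, Cxcl14, a related chemokine (1.03, SE 0.317), and with TMM, RLE or cyclic loess scaling none was higher and 1 was lower.

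Pdgfra encodes a receptor typical of mesenchymal cells, and both of its regions rose. The promoter-class region at chr5:75155716-75157338 was already open in Control, at 12, 12.2, 11.7 and 12 CPM, and stood at 26.5, 28.4 and 19.1 CPM in Chd3/4Δβ. Control libraries were tightly grouped and Chd3/4Δβ libraries less so, with replicate 3 the lowest of them and still above Control. Means were 12 ± 0.205 and 24.7 ± 4.93 CPM, and the log2 fold change was 1.05 (SE 0.15, adjusted p = 4.27e-06).

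This gain is close to the fold threshold and fell short of it with TMM (0.84), with RLE (0.73), with library depth as a term (0.93) and without Chd3/4Δβ replicate 1 (0.99) or 2 (0.93). An intronic region of Pdgfra at chr5:75164686-75165149 had the larger fold. It stood at 0.284, 0.109, 0.191 and 0.212 CPM in Control and at 1.43, 1.92 and 2.03 CPM in Chd3/4Δβ. Every Control library was nearly closed there, at 2 to 9 reads and under 1 CPM, so the listing fixed the separation of the groups. The log2 fold change was 3.12 (SE 0.367, adjusted p = 2.49e-07), and with cyclic loess it was 0.57 (adjusted p = 0.399) and no longer called.

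Of 12 listed mesenchymal genes of 13, 7 were higher and none lower, and their summed level was 25.0 to 33.6 CPM in Control and 59.4 to 73.0 CPM in Chd3/4Δβ. With RLE scaling 6 were higher and 1 lower, and with housekeeping promoter scaling 9 and none. Among them Col1a1, the collagen gene, went from 0.803 ± 0.263 to 7.76 ± 1.41 CPM (3.27, SE 0.260) and Pdgfrb, the paralogous receptor, from 0.801 ± 0.283 to 3.6 ± 1.1 CPM (2.14, SE 0.311). Acta2 (-0.73, SE 0.304) and Col6a3 (-0.67, SE 0.210) were not called, Col3a1 had no listed region, and no listed region was at 0 in any library. The part of other cell types in the Pdgfra result was not tested.

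Genes of α cells had 5 higher and 1 lower of 8 listed. Endothelial genes had 4 higher (36.4%, beside 34.4% of all genes) and 1 lower (9.09%, beside 18.1%) of 11. Summed endothelial levels were 32.4 to 38.8 CPM in Control and 58.4 to 67.4 CPM in Chd3/4Δβ. With TMM or RLE scaling 3 endothelial genes were higher and 2 lower, and with housekeeping promoter scaling 8 and 1. Ductal genes had 4 higher and 1 lower of 8, but 1 higher and 2 lower with TMM, RLE or cyclic loess scaling. Acinar genes had 4 higher of 5, δ-cell genes 3 higher of 4 and immune genes 2 higher of 3, with none lower in the last 3 lists. Both listed glial genes were neither, and 1 was lower with TMM, RLE or cyclic loess. An intergenic region at -1498 bases from the TSS of Gcg, the glucagon gene that defines α cells, fell (-1.13, SE 0.214). An intergenic region at 29117 bases from the TSS of Irx2, an α-cell transcription factor, rose (4.64, SE 0.324). The part of these cells in the changes at the 10 genes was not tested.

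Among other FGF and PDGF genes, 8 of 10 listed were neither higher nor lower. Pdgfrb was higher and the promoter region of the ligand Fgf7 was lower (-1.13, SE 0.283). With RLE scaling 1 was higher and 4 lower, and with housekeeping promoter scaling 3 were higher and none lower. The FGF receptor genes Fgfr1 (-0.47, SE 0.152) and Fgfr2 (0.96, SE 0.320) were not called.

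**Figure D3:**
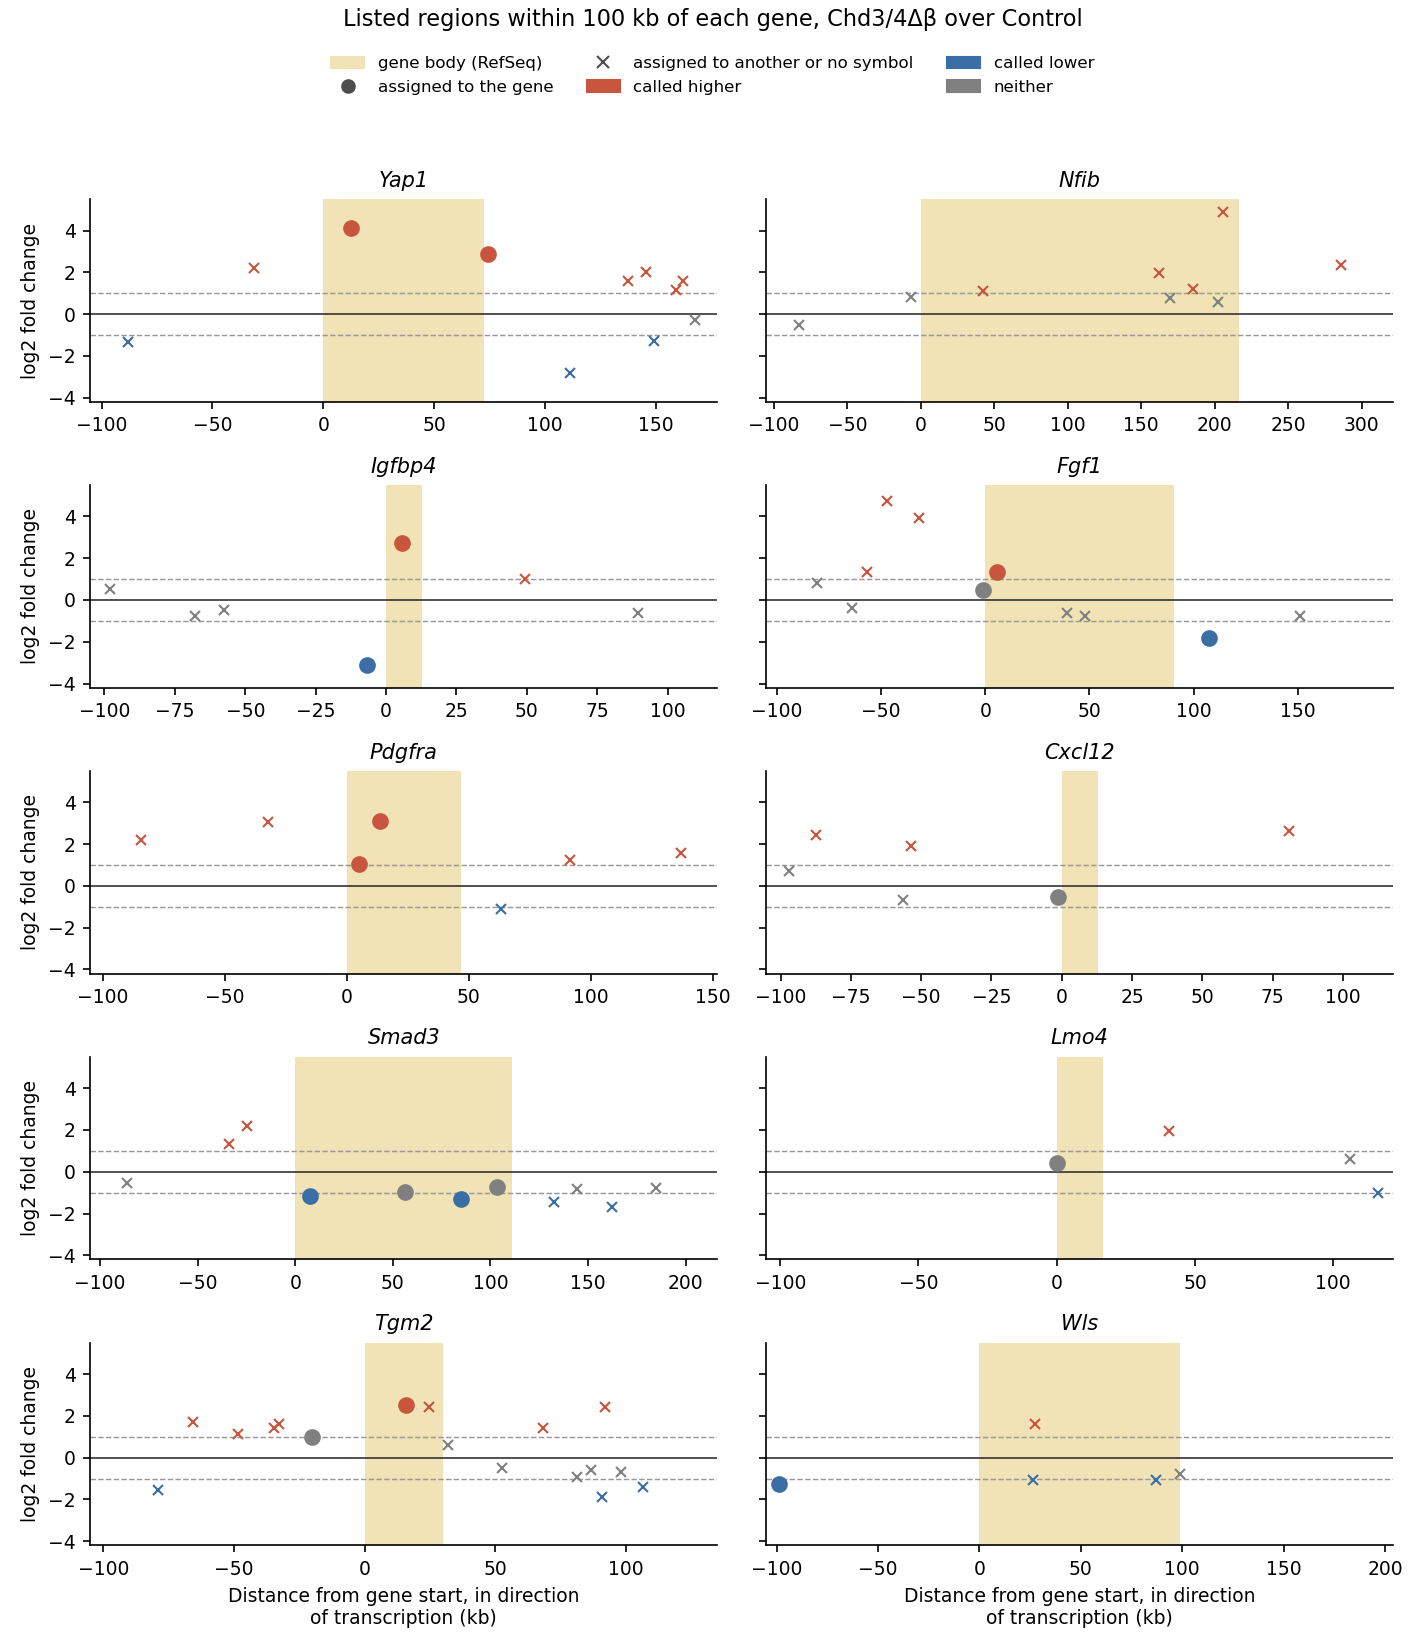
Log2 fold change of listed regions from 100000 bases before to 100000 bases after each gene, against distance from the gene start in kb along the direction of transcription. Filled points bear the gene's own symbol, crosses bear another or none, shading marks the RefSeq gene body, and colour the call. Of the 88 regions, 39 were higher, beside 37% of all listed regions, and 17 lower, beside 20.4%. All 4 Smad3 gene-body regions lie below 0 and all 6 Nfib ones above it.

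Tgm2, the tissue transglutaminase, had its called gain over an exon at chr2:158130199-158130926. It stood at 1.42, 1.14, 1.72 and 1.25 CPM in Control and at 9.18, 8.16 and 6.3 CPM in Chd3/4Δβ. The groups were far apart, with means of 1.38 ± 0.254 and 7.88 ± 1.46 CPM. The region rose by 2.52 on the log2 scale (SE 0.229, adjusted p = 6.28e-09), and by 2.21 to 2.74 over all alternatives, the narrowest range among the 6 gains past 4-fold.

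The other Tgm2 region, 19405 bases outside the gene and named after its values were seen, was the only overlapping one. It stood at 2.16, 2.33, 2.49 and 1.32 CPM in Control and at 6.56, 3.52 and 1.58 CPM in Chd3/4Δβ. The first Chd3/4Δβ library carried most of the difference, and replicate 3 lay within Control. The log2 fold change was 0.98 (SE 0.351, adjusted p = 0.0247) and went from 0.38 to 1.32 as single libraries were left out, the lowest without Chd3/4Δβ replicate 1. Against Control replicate 4 alone it was 1.59 (adjusted p = 0.0959).

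All 7 other transglutaminase genes had a listed region, with 4 higher and 2 lower. Tgm6 (4.12, SE 0.315), Tgm1 (2.50, SE 0.291), Tgm7 (2.15, SE 0.198) and F13a1, the coagulation factor XIII subunit (1.80, SE 0.257), rose. Tgm3 (-1.41, SE 0.305) and Tgm4 (-1.31, SE 0.320) fell.

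Wls, the WNT carrier, had its called loss far upstream of the gene, at chr3:159740585-159741261, which is 98389 bases outside it. The level was 2.38, 3.2, 2.82 and 4.12 CPM in Control and 0.681, 1.67 and 1.69 CPM in Chd3/4Δβ. The groups did not overlap, with means of 3.13 ± 0.741 and 1.35 ± 0.575 CPM and a log2 fold change of -1.28 (SE 0.316, adjusted p = 0.00163). Without Chd3/4Δβ replicate 1 the value was -0.92 and not called. A more distant region, named after its values were seen, was at 6.59 ± 0.276 and 4.74 ± 0.684 CPM (-0.49, SE 0.19), or -0.25 with housekeeping promoter scaling and -0.80 with RLE.

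Within the Wls gene body, 4 listed regions bear other symbols, those of predicted genes, of which 1 was higher (1.60, SE 0.341) and 2 lower (-1.08, SE 0.308, and -1.05, SE 0.324). Over all 10 gene bodies, 13 of 24 listed regions bear another symbol or none. Of these 13, 6 were higher, beside 37% of all listed regions, and 2 lower, beside 20.4%. Of 13 listed WNT genes of 16, 2 were higher and 1 lower, but 5 and 1 with housekeeping promoter scaling and 1 and 2 with RLE. The ligands Wnt9a (1.84, SE 0.213) and Wnt7b (1.17, SE 0.206) rose, the coreceptor Lrp6 fell (-1.51, SE 0.205), and Porcn, which makes WNT proteins ready for WLS, had no listed region.

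Of 20 disallowed genes outside these 10, 15 had a listed region. At the region nearest a TSS 4 were higher (26.7%, beside 34.4% of all genes) and 1 lower (6.67%, beside 18.1%). The median log2 fold change was 0.85, beside 0.44 over all genes. Over all 31 of their listed regions, 16 were higher, beside 37% of all listed regions, and 1 lower, beside 20.4%. Parp3 (2.61), Tns1 (1.19), Ldha, the lactate dehydrogenase (1.18), and Maf (1.01) were higher. An intergenic region of Hk1, a low-Km hexokinase, was lower (-1.67), at 1.1 ± 0.29 CPM in Control and 0.332 ± 0.0865 CPM in Chd3/4Δβ. By the most accessible region 4 genes of the list were higher and none lower, so Hk1 was not called lower by that reading. With TMM or RLE scaling 1 gene of the list was higher, and with housekeeping promoter scaling 9 were. Among 20 listed housekeeping genes none was higher and 2 were lower, with a median log2 fold change of -0.36. The median over all listed promoter-class regions was -0.31.

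**Figure D4:**
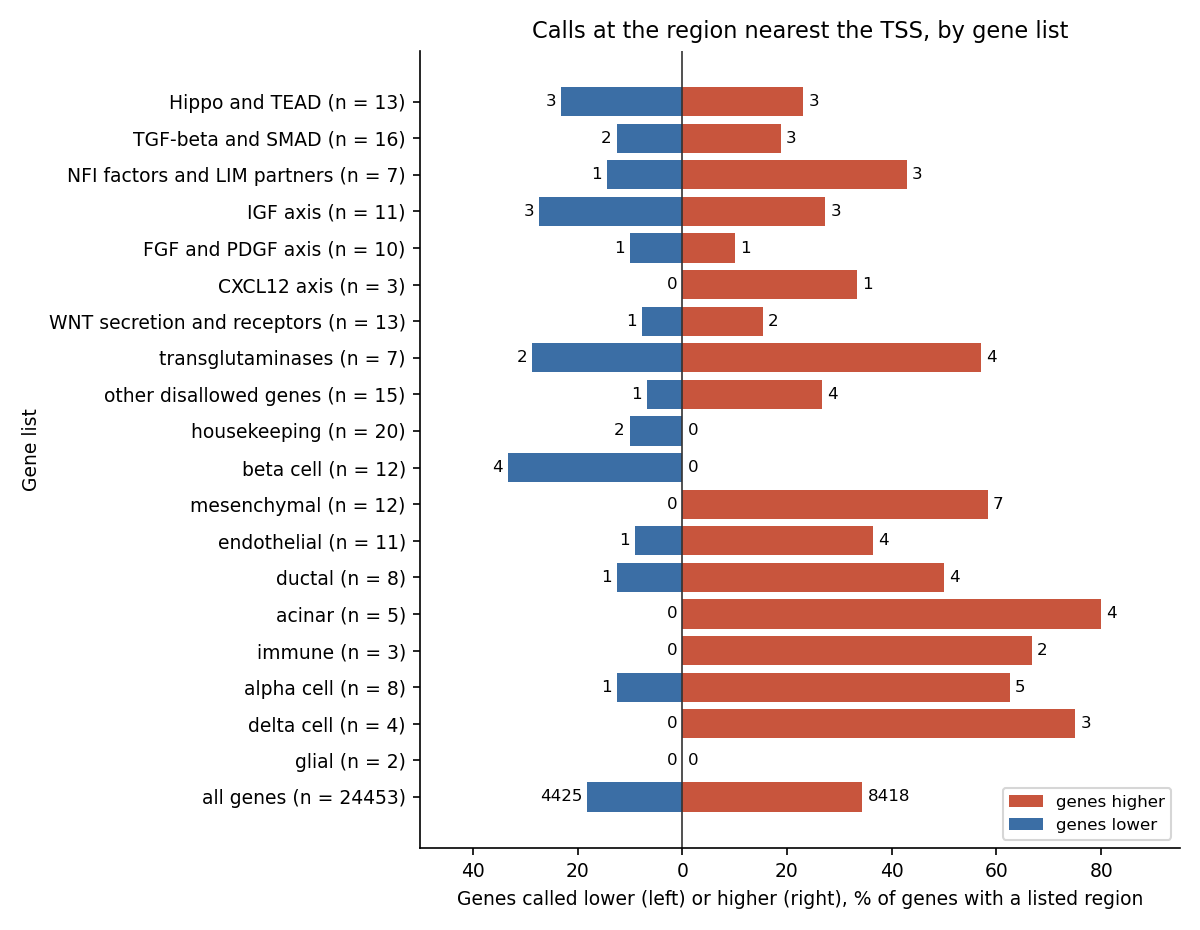
Share of the genes with a listed region that were called higher (red, right) or lower (blue, left) at the region nearest a TSS, for each list and for all 24453 genes. Numbers at the bars are genes. Mesenchymal genes have 7 higher and none lower of 12, Hippo and TEAD genes 3 of each of 13, and all genes 34.4% higher and 18.1% lower.

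Taken by level in Control, these regions ranged from nearly closed to well open, which does not show whether the genes were silent. The Yap1, Nfib and intronic Pdgfra regions were in the lowest 12.2% of the table by Control mean. In contrast, the Lmo4 promoter was at percentile 90.1, the Pdgfra promoter-class region at 86.7 and the first-intron Smad3 region at 83.5. These percentiles are over regions of all classes. Listed promoter-class regions had a median of 11 CPM in Control, beside 17.1 CPM for Lmo4 and 12 CPM for Pdgfra. Listed intronic regions had a median of 2.43 CPM, beside 9.54 CPM for this Smad3 region. The 5 regions with the lowest Control levels were also those with the 5 largest gains. This is a description with no test, since the fold change is itself taken over the Control level. The listing also tied the 2 together. With every Control library under 1 CPM, as at the Yap1, Nfib and intronic Pdgfra regions, only a gain could be listed. It thus does not show that closed regions gained more.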

How the data were processed

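ATAC-seq counts of 7 libraries (4 Control, 3 Chd3/4Δβ) were analysed. Tagmented nuclei were sequenced as paired ends by the authors, and for the aligner, peak caller and Tn5 shift, nothing was given in the sources used here. An annotated table of regions was deposited, with whole read counts and CPM in each library. Dividing counts by CPM gave the same quotient at every region of a library, and this was used as its size. The deposited p-value and FDR columns, of the authors' own contrast, served only to find that 109675 regions had been tested, of which the 61288 (55.9%) under an FDR of 0.05 are listed. Deposited fold changes and sheets that repeat rows of the table were not used.

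Counts were fitted with edgeR 4.0.16 (R 4.3.3; robust quasi-likelihood F-test, prior count 0.125), groups only, with Benjamini-Hochberg adjustment over the 109675 regions. Thresholds were 0.05 for the adjusted p and 1 for the size of the log2 fold change. Values per library are given for promoter-class regions, for the largest called gain and loss of each gene, and for the smallest p where there was no call. Members and lists were chosen with earlier results of these data known. Regions were assigned to the nearest TSS by the deposited annotation.

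The submitters' processing notes name GRCm39, but 68.3% of 5839 promoter regions lie within 2000 bases of the GRCm38.p6 RefSeq start of their gene, so coordinates are given as listed and read as GRCm38. The 24453 symbols include 18814 of the RefSeq table. The alternatives were TMM, RLE, cyclic loess and housekeeping promoter scaling, DESeq2 1.42.0, limma-voom (limma 3.58.1), a mean CPM filter of 2, a replicate block, a depth term, no fold threshold, adjustment over listed regions and leaving out each library, and for lists the most accessible region per gene. After seeing the data, leaving out the 3 lane-tagged Control libraries was added. Replicates differed pairwise beyond sampling noise (chi-square per degree of freedom 2.09 to 10.4), and each was counted as 1 library. This does not show that they were separate animals, since part of the spread may be technical.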

Additional observations from a re-analysis of the deposited data

How the results depend on the processing

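No region changed direction under any alternative, and 11 of the 20 regions kept their call wherever a refit gave them a value. The exceptions to this count are the setting with no fold threshold, which calls all 20, and the mean CPM filter, which drops 8. Of 352 region values under alternatives, 327 kept their side of the thresholds, 13 passed newly and 12 no longer passed. Counts were 7 to 9 higher and 4 to 6 lower as single libraries were left out, besides 8 and 5 with all. A mean CPM filter left 12 of the 20 regions, with 3 higher and 3 lower, which follows from the regions removed. Without the fold threshold 11 regions were higher (52.6% of all listed) and 9 lower (44.9%). Scaling moved the median of all listed regions by -0.21 (TMM), -0.31 (RLE), -0.42 (cyclic loess) or 0.22 (housekeeping promoters). Over all listed regions gains were 64.5% of calls, and 53.2%, 48%, 47.2% and 75.9% under these scalings. The members' counts were 7 higher and 6 lower with TMM, 7 and 7 with RLE, 7 and 6 with cyclic loess and 9 and 4 with housekeeping promoters. The Smad3 region at -0.98 passed the threshold with TMM (-1.19), RLE (-1.29) and cyclic loess (-1.40), and the cause was not tested.

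Leaving out the 3 lane-tagged Control libraries, a choice made after seeing the data, gave 8 higher and 2 lower regions, and 19950 higher and 7772 lower over the table (22692 and 12512 with all), and the cause was not tested.

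Replicate numbers are shared by the groups, but deviations of same-numbered libraries did not correlate (r = 0.033, -0.015 and 0.011). This gave no sign that the numbers mark pairs, though so few libraries cannot exclude it. A fit with the replicate block gave 8 higher and 6 lower regions, with the Smad3 region just named at -1.10. Depth limits the closed regions, where 1 to 10 reads stand behind a Control value.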
